A study of Homo sapiens with 36 samples.

Results

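The transcriptional effect of ouabain in senescent cells was compared between 36 h and 16 h of exposure. The comparison takes the ouabain minus vehicle difference at 36 h and subtracts from it the ouabain minus vehicle difference at 16 h, on the log2 scale, and is called the time interaction below. A positive value means that the effect of ouabain was more positive after 36 h than after 16 h. The libraries were chosen by their labels, as those of senescent cells with ouabain or with vehicle and without caspase inhibitor, and they make up 12 of the 36 libraries and 4 of the 12 groups of the study, with 3 libraries in each group. All genes were considered, and 18696 of the 57232 genes in the count table had enough reads to be tested.

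The study sequenced RNA of IMR90 ER:RAS cells, a line of human lung fibroblasts that carries an inducible RAS oncogene, and asked how cardiac glycosides change gene expression in senescent cells. The cells of all 4 groups were of passage 14, had received 100 nM 4OHT to switch RAS on and induce senescence, and had grown for 6 days before the treatment time began. The groups are senescent cells with ouabain for 36 h, senescent cells without a drug at 36 h (vehicle), senescent cells with ouabain for 16 h, and senescent cells without a drug at 16 h. No ouabain dose is given in the labels, 1 cell line was used, and senescence here is that driven by RAS. Whether the replicates are separate cultures is not stated, so p-values describe only the scatter among these libraries, and that scatter may be technical.

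Ouabain is a plant steroid that blocks the sodium pump (Na/K-ATPase), so that sodium builds up in the cell and potassium is lost. Cells under such stress are known to induce immediate early genes and stress response genes, and protein synthesis falls when potassium is low. Cells made senescent by RAS stop dividing and secrete chemokines, interleukins and matrix proteases, which together are called the senescence-associated secretory phenotype.

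Library totals of the 12 libraries lay between 12926798 and 21446415 counts. In a principal component analysis of log CPM, where CPM are read counts scaled to the library's size, the first component held 62.6% and the second 19.2% of the variance. On the first component the ouabain libraries of 36 h lay between -87.89 and -83.7, and the vehicle libraries of both times between 55.35 and 63.28. Of the ouabain libraries of 16 h, replicate 2 stood apart. It lay at -10.33, and the other libraries of its group at -45.57 and -51.79. Set against the libraries of the same group, its genes differed by a median of 0.271 on the log2 scale, sign ignored, while the other 11 libraries gave 0.0934 to 0.195. On this component it lay nearer to the vehicle libraries than its replicates did, and the interaction was therefore repeated without it. Mitochondrially encoded genes took 4.41% to 5.56% of the counts in the ouabain libraries of 36 h, and 6.72% to 7.26% in the other 9. Genes that define fibroblasts were present in all groups. Their summed level was 4892 to 5358 CPM with ouabain at 36 h, 8524 to 8624 CPM with vehicle at 36 h, 8649 to 9314 CPM with ouabain at 16 h and 8830 to 9122 CPM with vehicle at 16 h.

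**Figure D1:**
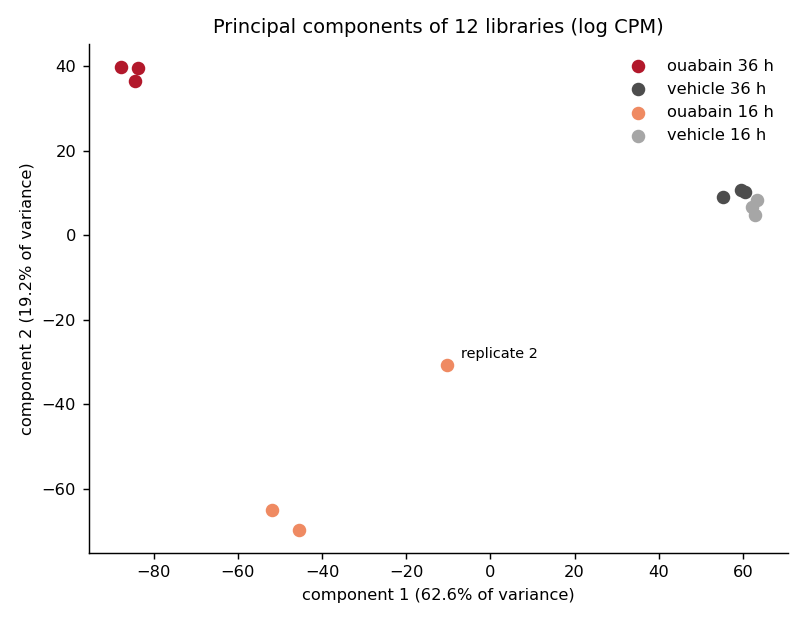
The 12 libraries on the first and second principal component of log CPM, each point 1 library, coloured by group. The groups with ouabain at 36 h and with vehicle are tight, and replicate 2 of ouabain at 16 h lies at -10.33 on the first component, between its replicates and the vehicle libraries.

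The response to ouabain differed between the times for a large share of the tested genes. A gene was called when its adjusted p was below 0.05 in edgeR's quasi-likelihood test with Benjamini-Hochberg adjustment over all tested genes. The time interaction was called for 6562 genes, or 35.1% of those tested, with 3443 higher (18.4%) and 3119 lower (16.7%). Changes of at least 1 on the log2 scale made up 1504 of the higher and 766 of the lower calls. Without ouabain 16 h replicate 2, 7016 genes were called, and 5980 genes were called in the same direction in both cases, which is 91.1% of the calls with all libraries and 85.2% of the calls without it. No gene was called in opposite directions.

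Vehicle cells changed less between the times than ouabain cells did. Between 36 h and 16 h of vehicle, 287 genes were called (1.54%), a count that was 130, 139 and 146 without vehicle 36 h replicate 1, 2 and 3, 148, 147 and 137 without vehicle 16 h replicate 1, 2 and 3, and 415 without ouabain 16 h replicate 2. Between 36 h and 16 h of ouabain, 9350 genes were called (50.0%). Among the 6562 interaction genes, 183 were called in the vehicle time change and 6254 in the ouabain time change. Their median absolute log2 change over time was 0.76 in ouabain cells and 0.106 in vehicle cells. The interaction is the ouabain time change minus the vehicle time change, so genes called in it are pushed toward large time changes. These counts and medians come partly from that selection, and no conclusion is drawn from them. A vehicle change enters every interaction, also where it is not pointed out below.

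Against vehicle, ouabain changed 11403 genes at 36 h (61.0%), 5642 of them higher (30.2%) and 5761 lower (30.8%). At 16 h it changed 9990 genes (53.4%), 4688 higher (25.1%) and 5302 lower (28.4%). These directions are relative to a scaling (TMM) that sets the bulk of genes to no change. When libraries were scaled by their totals alone, the median of all tested genes was -0.226 at 36 h and -0.256 at 16 h, and the calls were 4348 higher and 7575 lower at 36 h and 2784 higher and 7769 lower at 16 h. The median of the time interaction was -0.0005 with TMM and 0.0563 with library totals, so the interaction depended less on the scaling than each time alone. RNA counts of this kind do not show total RNA per cell, and fewer cells of one state and less RNA per cell cannot be told apart.

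The interaction genes fell into distinct shapes of response. Genes called at 36 h and not at 16 h numbered 2126 (32.4% of the interaction genes), of which 814 were higher and 1312 lower at 36 h. Genes called at 16 h and not at 36 h numbered 1257 (19.2%), and 885 of these were lower at 16 h and 372 higher. Both times in the same direction with a larger change at 36 h was the shape of 1766 genes (26.9%), and the same direction with a smaller change at 36 h that of 577 genes (8.79%). Another 736 genes (11.2%) changed in opposite directions, with 495 of them higher at 36 h and lower at 16 h and 241 the reverse. The last 100 genes (1.52%) were called at neither time alone. Not all responses differed in size: 6745 genes were called at both times with the same sign, and for 1531 of them the 95% interval of the interaction lay within 0.5 on the log2 scale on either side of 0.

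**Figure D2:**
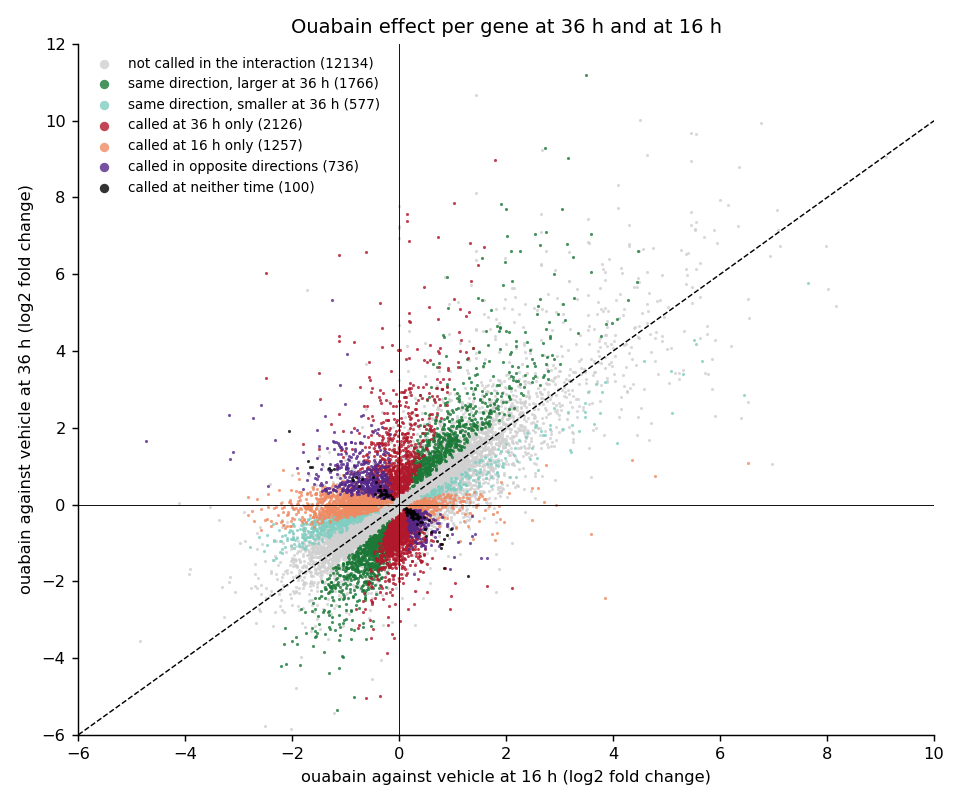
Log2 change with ouabain against vehicle at 16 h (x axis) and at 36 h (y axis) for every tested gene, each point 1 gene, coloured by its shape of response, with 3 genes outside the axes. Points off the diagonal had unlike log2 changes at the times. The 736 genes called in opposite directions lie in the upper left and lower right quadrants, beside other genes whose estimates differ in sign.

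Some of the strongest responses were of like size at both times with all libraries. The genes below were picked for a 95% interval of the interaction within 0.5 on either side of 0. Their small interactions are therefore part of the selection and no separate result. CRY1, a repressor of the circadian clock, had 164, 177 and 173 CPM with ouabain at 36 h, 18, 18.7 and 18.9 CPM with vehicle at 36 h, 188, 102 and 184 CPM with ouabain at 16 h and 16.9, 16.5 and 17.7 CPM with vehicle at 16 h. The ouabain libraries lay above the vehicle libraries at both times and overlapped each other across the times, and the interaction was -0.01 ± 0.18 (log2 ± standard error, 3 libraries in each group, 95% interval -0.36 to 0.35). Without ouabain 16 h replicate 2 it was -0.27 and was called (adjusted p = 0.0377). KBTBD8, an adaptor of a ubiquitin ligase, had an interaction of 0.08 ± 0.18 (95% interval -0.29 to 0.45), with log2 changes of 3.53 at 36 h and 3.45 at 16 h. JUNB, a subunit of the AP-1 transcription factor, rose by 3.23 at 36 h and 3.21 at 16 h. NEAT1, the long noncoding RNA of paraspeckles, rose by 3.06 and 3.08 at these times. Among steadily lower genes, TRAFD1, a negative regulator of innate immune signalling, was at -1.77 at both times. Without ouabain 16 h replicate 2, its interaction was 0.4975 (adjusted p = 0.0017) and no longer near 0, since that library held 19.3 CPM and its replicates 8.78 and 8.29 CPM.

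Most tested genes of the sodium pump, the drug target, and its regulators were higher with ouabain at both times, and their share called in the interaction was near that of all genes. ATP1B3, a beta subunit that carries the pump to the membrane, had 877, 822 and 756 CPM with ouabain at 36 h, against 209, 203 and 199 CPM with vehicle at 36 h. With ouabain at 16 h it had 435, 339 and 442 CPM, against 227, 208 and 214 CPM with vehicle at 16 h. The ouabain libraries of 36 h lay above those of 16 h with no overlap, and the interaction was 1.10 ± 0.13 (adjusted p = 1.56e-08). ATP1B1, the main beta subunit of many tissues, rose by 0.73 at 36 h and 0.87 at 16 h, and its interaction of -0.14 ± 0.13 was not called (adjusted p = 0.439). Of 7 tested genes of pump subunits and regulators, 2 had a higher and 0 a lower interaction, with a median of -0.03 beside -0.0005 for all tested genes. That is 28.6% called, beside 35.1% of all tested genes. Against vehicle, 5 of the 7 were higher with ouabain at each time, beside 30.2% of all tested genes at 36 h and 25.1% at 16 h.

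Genes that respond to a disturbed salt balance were high at both times. Of 8 tested osmotic stress genes, 7 rose at 36 h and 7 at 16 h, with medians of 1.73 and 1.70. Among all tested genes 30.2% rose at 36 h and 25.1% at 16 h. In the interaction 2 of the 8 were higher and 1 lower (2 and 3 without ouabain 16 h replicate 2). With all libraries that is 37.5% called, beside 35.1% of all tested genes. SGK1, a kinase that controls sodium channels and pumps, had 219, 236 and 257 CPM with ouabain at 36 h, 29.4, 31 and 28.5 CPM with vehicle at 36 h, 63.8, 52.9 and 64.1 CPM with ouabain at 16 h and 33.5, 35.4 and 35.2 CPM with vehicle at 16 h. Its interaction of 2.21 ± 0.13 (adjusted p = 2.93e-15) was called. The taurine transporter SLC6A6 had an interaction of 0.55 ± 0.16. NFAT5, the transcription factor of the osmotic stress response, rose by 1.47 at 36 h and 2.23 at 16 h, with an interaction of -0.76 ± 0.33 that was not called (adjusted p = 0.0698) and was called without ouabain 16 h replicate 2 at -1.002 (adjusted p = 0.0153).

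Immediate early genes, which cells transcribe within minutes of a stimulus, were high at both times. Of 27 tested, 25 rose at 36 h and 24 at 16 h, with medians of 2.08 and 1.96. Among all tested genes 30.2% rose at 36 h and 25.1% at 16 h. In the interaction 8 of the 27 were higher and 2 lower, a share of 37.0% beside 35.1% of all tested genes. ATF3, a stress-induced transcription factor, had 127, 166 and 180 CPM with ouabain at 36 h, 5.91, 6.49 and 5.05 CPM with vehicle at 36 h, 47.6, 28.9 and 47.5 CPM with ouabain at 16 h and 5.41, 6.65 and 5.63 CPM with vehicle at 16 h. All ouabain libraries of 36 h lay above those of 16 h, and the interaction was 1.96 ± 0.24 (adjusted p = 5.14e-08). FOSB, an AP-1 subunit, had an interaction of 1.98 ± 0.43, and EGR2, a zinc finger factor, one of -1.16 ± 0.34. EGR1, its paralog, rose by 3.44 at 36 h and 3.64 at 16 h, with an interaction of -0.20 ± 0.27 (95% interval -0.75 to 0.35). FOS rose by 7.26 at 36 h and 6.32 at 16 h, with an interaction of 0.94 that was not called (95% interval -0.41 to 2.28, adjusted p = 0.295).

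Transcripts tied to RAS signalling also differed between the times. Reads of HRAS came to 5186, 5078 and 4954 CPM with ouabain at 36 h, 1244, 1229 and 1233 CPM with vehicle at 36 h, 3031, 2454 and 2702 CPM with ouabain at 16 h and 1357, 1242 and 1257 CPM with vehicle at 16 h. The labels do not name the RAS gene of the construct, and reads of an introduced and of the resident gene cannot be told apart here. The interaction was 0.95 ± 0.12 (adjusted p = 1.57e-07). Of 15 tested feedback genes of MAP kinase signalling, 6 had a higher and 4 a lower interaction (median 0.14), and 6 and 2 without vehicle 16 h replicate 1. With all libraries that is 66.7% called, beside 35.1% of all tested genes. DUSP6, a phosphatase that inactivates ERK, fell to 91, 95.4 and 93.3 CPM with ouabain at 36 h, against 318, 322 and 308 CPM with vehicle. At 16 h it had 276, 289 and 271 CPM with ouabain and 332, 320 and 324 CPM with vehicle, and the interaction was -1.54 ± 0.11 (adjusted p = 8.32e-13). DUSP5, another phosphatase of ERK, went the other way, with 432, 400 and 426 CPM with ouabain at 36 h and 162, 170 and 168 CPM with vehicle, and 184, 179 and 182 CPM with ouabain at 16 h and 219, 207 and 203 CPM with vehicle. It rose at 36 h, fell at 16 h, and had an interaction of 1.54 ± 0.11 (adjusted p = 3.91e-13). SPRY1, an inhibitor of growth factor signalling, likewise rose at 36 h by 0.93 and fell by 1.46 at 16 h.

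The antioxidant genes controlled by NRF2 rose mostly at the later time. NRF2 (encoded by NFE2L2) is a transcription factor that oxidative or electrophilic stress frees from its repressor KEAP1, after which it binds antioxidant response elements in its target genes. Of 21 tested genes of the group, 13 had a higher and 4 a lower interaction, with a median of 0.86 beside -0.0005 for all tested genes. Their share called was 81.0%, beside 35.1% of all tested genes. At 36 h 15 rose and 4 fell, with a median of 1.19. At 16 h 9 rose and 6 fell with a median of 0.11, a median that was -0.18 when libraries were scaled by their totals. The interaction counts were 13 to 14 higher and 3 to 4 lower when any 1 of the 12 libraries was left out.

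The element TGACNNNGC, in which N stands for any base, was searched on both strands of RefSeq promoter windows of build GRCh38.p14. Each window runs from 250 bases before to 50 bases after a gene's start, and only the 250 bases before the start were searched. The reads were aligned to another build, hg19, and the sequences are shown as examples of the element. Windows were present for 14 of the 21 genes, and 4 of these held the element (28.6%), against 1427 of 11725 windows of tested genes (12.2%) and 3013 of 27305 windows in all. Among genes with a called interaction of at least 1, 140 of 1075 windows held it (13.0%), and among those at -1 or below 67 of 489 (13.7%). The 4 stretches below run 5′ to 3′ in the direction of the gene (GCLM and ME1 lie on the minus strand, TXNRD1 and PGD on the plus strand), and capitals mark the element, which reads as its reverse complement in GCLM and PGD. A match is a description and does not show that a factor binds there.
GCLM at chr1:93909431-93909490: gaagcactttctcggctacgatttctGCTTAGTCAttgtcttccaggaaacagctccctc
TXNRD1 at chr12:104215654-104215714: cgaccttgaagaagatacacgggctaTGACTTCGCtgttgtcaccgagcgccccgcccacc
ME1 at chr6:83431154-83431214: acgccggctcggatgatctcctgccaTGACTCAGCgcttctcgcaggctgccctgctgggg
PGD at chr1:10398837-10398897: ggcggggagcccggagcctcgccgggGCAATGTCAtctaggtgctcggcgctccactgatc

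The 4 genes that hold the element did not move together. GCLM, the regulatory subunit of the enzyme that starts glutathione synthesis, had 155, 160 and 162 CPM with ouabain at 36 h, 39.3, 42 and 38.1 CPM with vehicle at 36 h, 43.5, 44 and 46 CPM with ouabain at 16 h and 49.9, 47.3 and 53 CPM with vehicle at 16 h. The ouabain libraries lay above vehicle at 36 h and below it at 16 h. Its interaction was 2.17 ± 0.12 (adjusted p = 4.72e-16). At 16 h its change of -0.17 was not called (adjusted p = 0.0778), though it was called at -0.45 with scaling by library totals. TXNRD1, thioredoxin reductase, had an interaction of 1.28 (adjusted p = 3.7e-13). ME1, the malic enzyme of the cytosol, and PGD, an enzyme of the pentose phosphate pathway, had lower interactions of -0.34 (adjusted p = 0.00835) and -0.65 (adjusted p = 1.17e-05). TXNRD1, ME1 and PGD are shown for their element, and were chosen after their values were seen. Both ME1 and PGD supply NADPH.

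Other antioxidant genes rose strongly at the later time. HMOX1, heme oxygenase, had 505, 489 and 523 CPM with ouabain at 36 h, 23.1, 20.5 and 23.3 CPM with vehicle at 36 h, 172, 126 and 165 CPM with ouabain at 16 h and 31.1, 33 and 26.3 CPM with vehicle at 16 h. It was 22.7-fold higher than vehicle at 36 h and 5.11-fold higher at 16 h, and its interaction was 2.15 ± 0.17 (adjusted p = 6.93e-12). NQO1, a quinone reductase, had 900, 875 and 860 CPM with ouabain at 36 h and 241, 253 and 241 CPM with vehicle, while at 16 h it had 260, 256 and 247 CPM with ouabain and 244, 236 and 229 CPM with vehicle. It rose at 36 h, and at 16 h its change was 0.11 and not called (adjusted p = 0.312). GSR, glutathione reductase, had 122, 122 and 125 CPM with ouabain at 36 h and 66.4, 68.4 and 66.2 CPM with vehicle, but 32.9, 44.5 and 33.6 CPM with ouabain at 16 h and 68.7, 69 and 71.1 CPM with vehicle. It rose at 36 h and fell at 16 h, and its interaction was 1.79 ± 0.12 (adjusted p = 1.08e-13). NFE2L2 and KEAP1 were also chosen after their values were seen. The transcript of NRF2, NFE2L2, rose by 1.98 at 36 h and 1.69 at 16 h, with an interaction of 0.29 that was not called (adjusted p = 0.0823). KEAP1, its repressor, fell by 0.92 at 16 h and was at -0.05 at 36 h (adjusted p = 0.733).

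**Figure D3:**
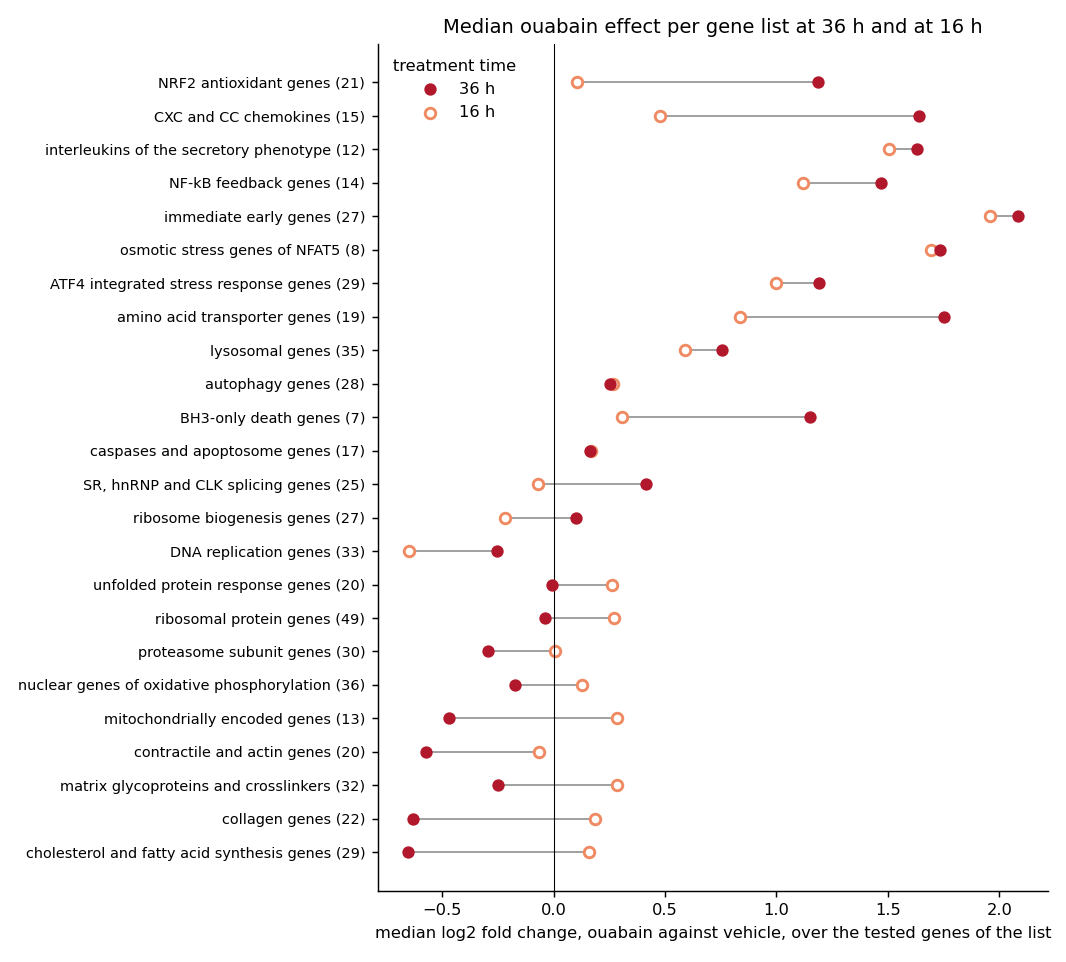
Median log2 change with ouabain against vehicle over the tested members of 24 gene groups, at 36 h (filled) and at 16 h (open). Antioxidant genes and chemokines lie further right at 36 h, cholesterol synthesis, collagen, contractile and mitochondrially encoded genes further left.

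Secreted factors did not shift as a block. Of 15 tested chemokines, 8 had a higher and 3 a lower interaction, with a median of 1.27, while of 12 interleukins of the secretory phenotype 4 were higher and 4 lower with a median of -0.07 (4 and 2 without ouabain 36 h replicate 1 or without ouabain 16 h replicate 3). With all libraries 73.3% of the chemokines and 66.7% of the interleukins were called, beside 35.1% of all tested genes. Against vehicle the interleukins had 7 higher and 2 lower genes at 36 h and 8 higher and 0 lower at 16 h, with medians of 1.63 and 1.51.

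CXCL8, a chemokine that draws neutrophils, had 6137, 5974 and 6072 CPM with ouabain at 36 h, 787, 654 and 672 CPM with vehicle at 36 h, 1859, 1622 and 2026 CPM with ouabain at 16 h and 590, 517 and 438 CPM with vehicle at 16 h. The groups did not overlap between ouabain and vehicle at either time, and the interaction was 1.27 ± 0.27 (adjusted p = 0.000323). CXCL5, of the same family, had 536, 564 and 643 CPM with ouabain at 36 h and 87.4, 78.7 and 75 CPM with vehicle, and at 16 h 31.1, 56.8 and 28.4 CPM with ouabain and 36.4, 33.8 and 30.3 CPM with vehicle. Its rise was called at 36 h, not at 16 h (0.22, adjusted p = 0.386), and its interaction was 2.64 ± 0.29. CXCL2 had an interaction of 2.11 ± 0.24. Against these, CXCL10, a chemokine induced by interferon, fell to 0.21, 0.32 and 0.255 CPM with ouabain at 36 h, against 8.04, 8.51 and 9.92 CPM with vehicle, while at 16 h it had 2.7, 5.19 and 1.68 CPM with ouabain and 5.86, 5.05 and 4.16 CPM with vehicle. Its interaction of -4.42 ± 0.53 (adjusted p = 3.57e-08) went with a fall at 36 h, and its change of -0.62 at 16 h was not called (adjusted p = 0.0541) but was -0.89 and called with library totals (adjusted p = 0.00722). CCL2, which draws monocytes, had 4.87, 8.48 and 10.8 CPM with ouabain at 36 h and 57.3, 50.6 and 51.4 CPM with vehicle, and 16.4, 33.4 and 16.6 CPM with ouabain at 16 h and 47.4, 41.7 and 36.3 CPM with vehicle, with an interaction of -1.86 ± 0.33. It fell at both times. Vehicle libraries of CXCL8, CXCL5, CXCL10 and CCL2 at 36 h lay above those of 16 h with no overlap. A vehicle change therefore also enters these interactions.

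The paired inflammatory cytokines IL1B and IL1A moved apart between the times. IL1B had 1248, 1377 and 1448 CPM with ouabain at 36 h, 252, 221 and 222 CPM with vehicle at 36 h, 299, 333 and 311 CPM with ouabain at 16 h and 141, 128 and 124 CPM with vehicle at 16 h. The interaction of IL1B was 1.29 ± 0.14 (adjusted p = 4.36e-09). Its vehicle libraries of 36 h lay above those of 16 h with no overlap, so a vehicle change also enters this interaction. IL1A had 25.2, 30 and 29.4 CPM with ouabain at 36 h, 36.1, 31.2 and 32.8 CPM with vehicle at 36 h, 89.9, 75.4 and 98.9 CPM with ouabain at 16 h and 27, 26.1 and 25.3 CPM with vehicle at 16 h. It rose at 16 h, and at 36 h its change of -0.24 was not called (adjusted p = 0.0815, and -0.47 and called with library totals), and the interaction was -2.00 ± 0.17 (adjusted p = 2.64e-11). Vehicle libraries of IL1A also lay higher at 36 h than at 16 h with no overlap. IL24, a cytokine of the IL-10 family, had 85, 79.3 and 89.1 CPM with ouabain at 36 h, 0.602, 0.46 and 0.171 CPM with vehicle at 36 h, 0.859, 1.58 and 1.14 CPM with ouabain at 16 h and 0.335, 0.141 and 0.425 CPM with vehicle at 16 h. Its interaction was 5.72 ± 0.62 (adjusted p = 1.25e-08), and the ouabain libraries lay above vehicle at each time. IL6 had an interaction of 0.87 ± 0.25 (adjusted p = 0.00533). LIF, a cytokine of the IL-6 family, had 345, 471 and 463 CPM with ouabain at 36 h and 260, 255 and 266 CPM with vehicle, and 1181, 897 and 1113 CPM with ouabain at 16 h and 247, 264 and 247 CPM with vehicle. It rose at both times and less so at 36 h, with an interaction of -1.36 ± 0.16 (adjusted p = 4.31e-08).

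**Figure D4:**
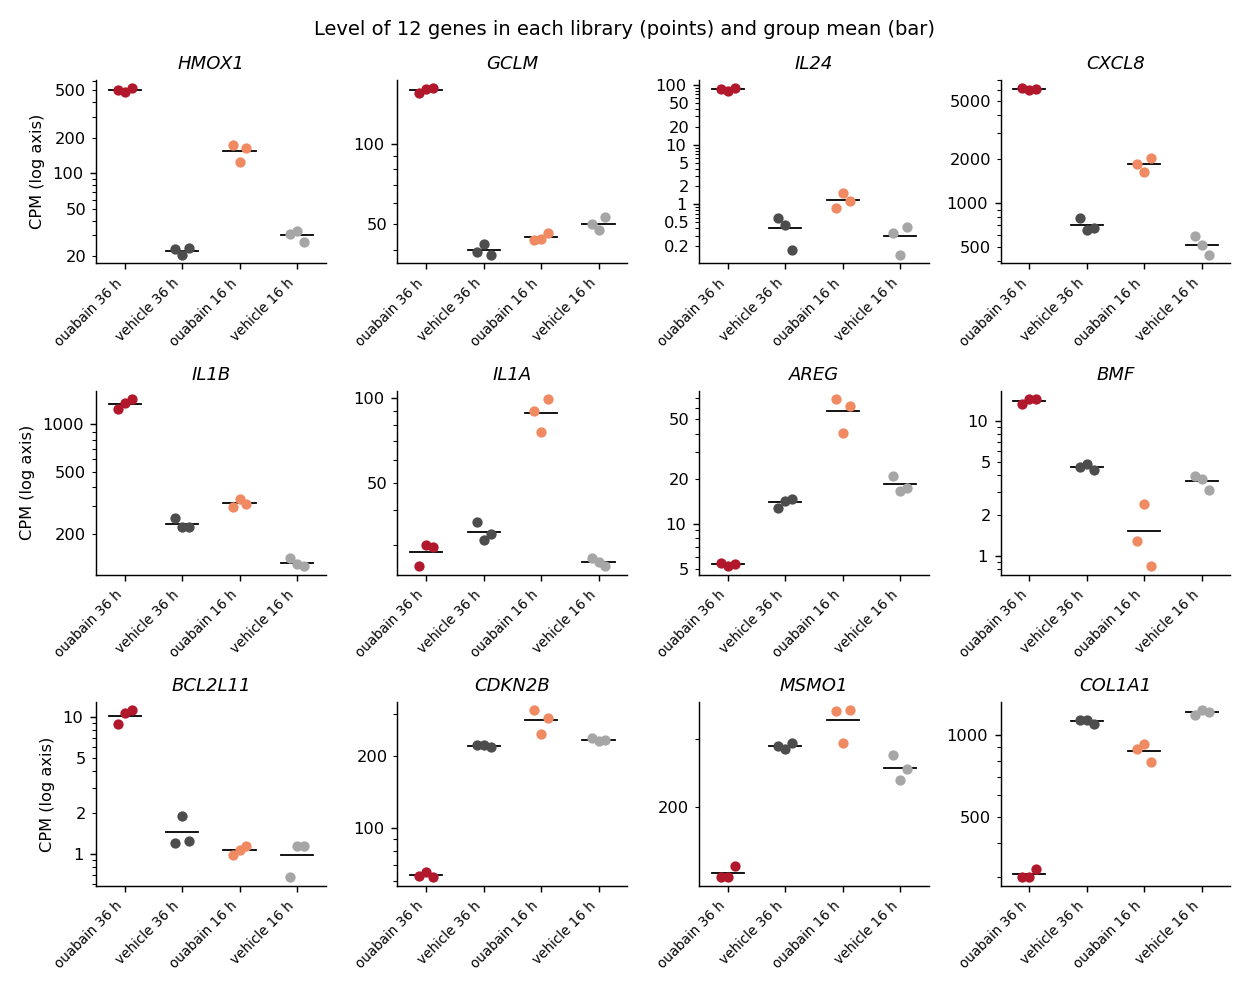
CPM (log axis) in each library of the 4 groups for 12 genes, each point 1 library and each bar a group mean. HMOX1, GCLM, IL24, CXCL8 and IL1B are highest with ouabain at 36 h, IL1A and AREG are highest with ouabain at 16 h, and BMF is high at 36 h and below vehicle at 16 h.

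Growth factors leaned to the lower side, with 5 of 26 tested genes higher and 11 lower in the interaction (median -0.34). Their share called was 61.5%, beside 35.1% of all tested genes. AREG, a ligand of the EGF receptor, had 5.45, 5.17 and 5.34 CPM with ouabain at 36 h, 12.8, 14.2 and 14.6 CPM with vehicle at 36 h, 68.3, 40.7 and 61.7 CPM with ouabain at 16 h and 20.9, 16.6 and 17.4 CPM with vehicle at 16 h. It fell at 36 h and rose at 16 h, and the interaction was -3.02 ± 0.25 (adjusted p = 2.43e-11). Its vehicle libraries of 36 h lay below those of 16 h with no overlap. PDGFA, a mitogen of fibroblasts, had 28.3, 25.6 and 27.4 CPM with ouabain at 36 h and 3.94, 2.62 and 2.91 CPM with vehicle, and its interaction was 2.86 ± 0.26. At 16 h PDGFA was at 0.26 (adjusted p = 0.286). BMP6, a bone morphogenetic protein, had an interaction of 3.60 ± 0.45, and ANGPTL4, a secreted inhibitor of lipoprotein lipase, one of -1.99 ± 0.20.

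Of 14 tested feedback genes of NF-kB, the factor behind many of these cytokines, 11 rose at each time. Among all tested genes 30.2% rose at 36 h and 25.1% at 16 h. In the interaction 5 of the 14 were higher and 1 lower, or 42.9% called beside 35.1% of all tested genes. The summed vehicle level of these 14 genes was 1299 to 1420 CPM at 16 h and 2233 to 2408 CPM at 36 h. SOD2, the mitochondrial superoxide dismutase, had an interaction of 0.76 ± 0.10. ICAM1, an adhesion molecule for leukocytes, had 367, 444 and 471 CPM with ouabain at 36 h and 682, 631 and 652 CPM with vehicle, and 728, 739 and 719 CPM with ouabain at 16 h and 378, 380 and 343 CPM with vehicle. It fell at 36 h and rose at 16 h, and the interaction was -1.61 ± 0.17 (adjusted p = 1.76e-09). The vehicle libraries of ICAM1 at 36 h lay above those of 16 h with no overlap, so a vehicle change also enters this interaction. Of 26 tested interferon-stimulated genes, 1 had a higher and 6 a lower interaction (median -0.56), and 1 higher and 3 lower without ouabain 16 h replicate 1. With all libraries that is 26.9% called, beside 35.1% of all tested genes (18.4% higher and 16.7% lower). IFIT1, an RNA sensor, had 0.629, 0.427 and 0.255 CPM with ouabain at 36 h and 1.26, 2.76 and 3.16 CPM with vehicle, and its levels at 16 h were 6.08, 1.02 and 1.92 CPM with ouabain and 1.45, 1.42 and 1.61 CPM with vehicle. Levels of IFIT1 were low in all groups, and the ouabain libraries of 36 h lay below those of the other groups. Of 19 tested matrix proteases and inhibitors, 7 were higher and 6 lower in the interaction, or 68.4% called beside 35.1% of all tested genes. MMP3, stromelysin, had 8140, 7194 and 7402 CPM with ouabain at 36 h and 736, 738 and 738 CPM with vehicle, and 2440, 1793 and 2417 CPM with ouabain at 16 h and 684, 628 and 649 CPM with vehicle (10.3-fold and 3.39-fold higher with ouabain). ADAMTS5, an aggrecanase, had an interaction of 2.29 ± 0.20, rising at 36 h and falling at 16 h.

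Genes of cell death did not move one way. BH3-only genes encode small proteins that trigger mitochondrial apoptosis, and of 7 tested, 3 had a higher and 2 a lower interaction. Their share called was 71.4%, beside 35.1% of all tested genes. BMF had 13.3, 14.5 and 14.4 CPM with ouabain at 36 h, 4.54, 4.78 and 4.36 CPM with vehicle at 36 h, 1.29, 2.44 and 0.841 CPM with ouabain at 16 h and 3.91, 3.73 and 3.07 CPM with vehicle at 16 h. It rose at 36 h and fell at 16 h, with no overlap between ouabain and vehicle at either time, and the interaction was 2.80 ± 0.26 (adjusted p = 2.83e-10). BCL2L11, which encodes BIM, had 8.85, 10.7 and 11.2 CPM with ouabain at 36 h, 1.2, 1.89 and 1.24 CPM with vehicle at 36 h, 0.982, 1.07 and 1.14 CPM with ouabain at 16 h and 0.67, 1.13 and 1.13 CPM with vehicle at 16 h. The interaction of BCL2L11 was 2.71 ± 0.37 (adjusted p = 4.36e-07), and at 16 h its change was 0.10 (adjusted p = 0.799). PMAIP1, which encodes NOXA, had 586, 607 and 598 CPM with ouabain at 36 h and 178, 165 and 169 CPM with vehicle, and 432, 315 and 424 CPM with ouabain at 16 h and 218, 204 and 203 CPM with vehicle. It rose at both times, and its interaction was 0.90 ± 0.15. BBC3, which encodes PUMA, rose by 1.15 at 36 h and 1.48 at 16 h, with an interaction of -0.33 ± 0.25 (95% interval -0.84 to 0.19). BAD, another BH3-only gene, had an interaction of -0.93 ± 0.22.

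Of 5 tested survival genes of the BCL2 family, 0 had a higher and 2 a lower interaction. That is 40.0% called, beside 35.1% of all tested genes. MCL1, the short-lived survival protein, rose by 1.10 at 36 h and 1.49 at 16 h, an interaction of -0.39 ± 0.12 (adjusted p = 0.00781) that was -0.28 and not called without ouabain 16 h replicate 1 (adjusted p = 0.0504). BCL2L1, which encodes BCL-XL, fell by 0.55 at 36 h and 0.21 at 16 h, an interaction of -0.35 ± 0.09 (adjusted p = 0.0038) that was not called without the filter on low counts (adjusted p = 0.052).

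Some apoptosome and necroptosis genes fell at 16 h and were near or above vehicle at 36 h. Of 17 tested caspase and apoptosome genes, 5 had a higher and 4 a lower interaction (median 0.21), with 2 lower without ouabain 36 h replicate 1, vehicle 36 h replicate 1, ouabain 16 h replicate 1 or vehicle 16 h replicate 3. With all libraries that is 52.9% called, beside 35.1% of all tested genes. APAF1, the scaffold of the apoptosome, had 47.5, 47.6 and 48.1 CPM with ouabain at 36 h, 38, 38.9 and 38.5 CPM with vehicle at 36 h, 11.7, 24.3 and 13.7 CPM with ouabain at 16 h and 36.6, 44.1 and 45.9 CPM with vehicle at 16 h. Its interaction was 1.65 ± 0.20 (adjusted p = 3.82e-08), and its small rise at 36 h (0.31, adjusted p = 0.0475) was 0.09 and not called with library totals. Of 13 tested death receptor and ligand genes, 4 had a higher and 2 a lower interaction (4 and 4 without ouabain 16 h replicate 3). Their share called with all libraries was 46.2%, beside 35.1% of all tested genes. MLKL, the effector of necroptosis, had 23.1, 24.4 and 26 CPM with ouabain at 36 h, 17.7, 16.8 and 16.8 CPM with vehicle at 36 h, 3.93, 9.92 and 2.22 CPM with ouabain at 16 h and 14, 15 and 16.7 CPM with vehicle at 16 h. Its interaction was 1.99 ± 0.32 with all libraries and 2.80 without ouabain 16 h replicate 2, and its rise of 0.52 at 36 h was 0.29 and not called with library totals. RIPK1, a kinase of death receptor signalling, followed with an interaction of 1.16 ± 0.15. TNFSF15, a ligand of the TNF family, had 162, 171 and 176 CPM with ouabain at 36 h and 210, 209 and 203 CPM with vehicle, and 294, 271 and 320 CPM with ouabain at 16 h and 93.8, 129 and 121 CPM with vehicle, an interaction of -1.65 ± 0.16. Its vehicle libraries of 36 h also lay above those of 16 h with no overlap.

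Cell cycle inhibitors separated. Of 7 tested CDK inhibitors, 2 had a higher and 2 a lower interaction, or 57.1% called beside 35.1% of all tested genes. CDKN2B, which encodes p15, had 62.9, 64.9 and 61.8 CPM with ouabain at 36 h, 224, 223 and 219 CPM with vehicle at 36 h, 312, 247 and 290 CPM with ouabain at 16 h and 238, 231 and 234 CPM with vehicle at 16 h. It fell at 36 h, and its interaction was -2.08 ± 0.10 (adjusted p = 1.57e-17). The rise of 0.27 at 16 h was -0.01 and not called with library totals. CDKN2A, which encodes p16 and ARF, had an interaction of -0.56 ± 0.17 (adjusted p = 0.0105). CDKN1A, which encodes p21, had 2257, 2543 and 2654 CPM with ouabain at 36 h and 1431, 1451 and 1442 CPM with vehicle, and 2749, 2186 and 2437 CPM with ouabain at 16 h and 1461, 1376 and 1372 CPM with vehicle. It rose by 0.79 at 36 h and 0.81 at 16 h, and its interaction was -0.02 ± 0.10 (95% interval -0.24 to 0.19). CDKN1B, which encodes p27, had an interaction of 1.13 ± 0.17.

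Of 27 tested p53 targets outside the BCL2 family, 16 rose and 8 fell at 36 h and 17 rose and 5 fell at 16 h. Among all tested genes 30.2% rose and 30.8% fell at 36 h, and 25.1% rose and 28.4% fell at 16 h. In the interaction 1 was higher and 8 were lower (3 higher and 7 lower without ouabain 16 h replicate 2). With all libraries that is 33.3% called, beside 35.1% of all tested genes (18.4% higher and 16.7% lower). GADD45B, a stress sensor, had 467, 523 and 553 CPM with ouabain at 36 h and 6.68, 6.9 and 9.58 CPM with vehicle, and 134, 84.7 and 109 CPM with ouabain at 16 h and 10.4, 8.25 and 8.7 CPM with vehicle. It rose at both times with an interaction of 2.46 ± 0.27 (adjusted p = 5.39e-09). CCNG1, cyclin G1, fell at 36 h with an interaction of -0.91 ± 0.12, and its change of -0.01 at 16 h was -0.29 and called with library totals. GDF15, a stress cytokine, rose by 1.41 at 36 h and 1.61 at 16 h, with an interaction of -0.19 ± 0.13 (95% interval -0.45 to 0.07).

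DNA replication genes leaned to a higher interaction. Of 33 tested, 22 fell at 16 h and 14 at 36 h, beside 28.4% and 30.8% of all tested genes. At 36 h 8 rose, and the median was -0.25. In the interaction 13 were higher and 3 lower (median 0.20), or 48.5% called beside 35.1% of all tested genes. MCM2, a subunit of the replicative helicase, had 13.1, 10.6 and 12.6 CPM with ouabain at 36 h, 4.65, 4.74 and 4.32 CPM with vehicle at 36 h, 2.52, 3.82 and 1.68 CPM with ouabain at 16 h and 3.91, 4.91 and 5.53 CPM with vehicle at 16 h. The interaction of MCM2 was 2.23 ± 0.25 (adjusted p = 8.91e-09), that of MCM3, another subunit, 2.08 ± 0.20, and both rose at 36 h and fell at 16 h. CCNE1, cyclin E1, had an interaction of 1.48 ± 0.20, and its rise of 0.41 at 36 h was 0.185 and not called with library totals. LMNB1, a nuclear lamina gene whose loss marks senescence, had 9.06, 7.31 and 6.79 CPM with ouabain at 36 h, 1.37, 1.1 and 1.33 CPM with vehicle at 36 h, 0.307, 0.865 and 0.3 CPM with ouabain at 16 h and 0.67, 1.37 and 1.04 CPM with vehicle at 16 h. It was 6.13-fold higher than vehicle at 36 h, and its interaction was 3.63 ± 0.43 (adjusted p = 2.35e-08). Mitosis genes were mixed, with 7 of 30 higher and 4 lower (2 lower without ouabain 36 h replicate 1). Their share called was 36.7%, beside 35.1% of all tested genes. HMMR, a spindle protein, rose by 2.10 at 36 h and 3.63 at 16 h, and PRC1, which bundles microtubules at the midzone, rose by 0.62 at 36 h, a change of 0.40 that was not called with library totals, and fell by 0.90 at 16 h.

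Genes of RNA processing and ribosome assembly also leaned to a higher interaction. Of 25 tested splicing regulators, 14 had a higher and 1 a lower interaction (median 0.37), or 60.0% called beside 35.1% of all tested genes. SRSF3, a splicing factor of the SR family, had 211, 195 and 206 CPM with ouabain at 36 h, 138, 135 and 128 CPM with vehicle at 36 h, 86.3, 107 and 86.1 CPM with ouabain at 16 h and 148, 135 and 137 CPM with vehicle at 16 h. It rose at 36 h and fell at 16 h (interaction 1.20 ± 0.14, adjusted p = 4.13e-08), as did SRSF2 (1.24 ± 0.12) and SRSF4 (1.26 ± 0.14). SRSF7 fell at 16 h and was at 0.18 at 36 h (adjusted p = 0.339). Of 27 tested ribosome biogenesis genes, 13 had a higher and 1 a lower interaction (median 0.33), or 51.9% called. UBTF, a factor of ribosomal RNA transcription, had 63.6, 60.7 and 55.5 CPM with ouabain at 36 h and 55.2, 52.9 and 52.7 CPM with vehicle, and 22.8, 38.3 and 20.5 CPM with ouabain at 16 h and 57, 56.9 and 57.1 CPM with vehicle. The interaction of UBTF was 1.22 ± 0.17. NOP56, a core protein of small nucleolar ribonucleoproteins, had one of 0.86 ± 0.13.

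Ribosomal protein genes had a share of interaction calls, both directions pooled, no higher than that of all tested genes, and all their calls were lower. Of 49 tested, 0 had a higher and 12 a lower interaction (median -0.30), or 24.5% called in either direction beside 35.1% of all tested genes. By direction, 18.4% of all tested genes were higher and 16.7% lower. At 36 h 8 of the 49 were higher and 11 lower. At 16 h 19 rose and 0 fell, but 0 rose and 1 fell with library totals. The interaction count was 7 lower with library totals and without ouabain 16 h replicate 1, vehicle 16 h replicate 2 or vehicle 16 h replicate 3. RPL3 had 319, 347 and 326 CPM with ouabain at 36 h and 561, 541 and 539 CPM with vehicle, and 746, 676 and 667 CPM with ouabain at 16 h and 646, 568 and 579 CPM with vehicle (interaction -0.95 ± 0.16). Many ribosomal protein genes have near-identical pseudogenes, and how the counting shared their reads is not given in the sources used here. Proteasome subunit genes had 0 of 30 higher and 12 lower (median -0.30), or 40.0% called beside 35.1% of all tested genes. PSMD1, a subunit of the regulatory particle, had 152, 150 and 147 CPM with ouabain at 36 h and 248, 242 and 239 CPM with vehicle, and 223, 214 and 216 CPM with ouabain at 16 h and 220, 215 and 229 CPM with vehicle (interaction -0.67 ± 0.09, adjusted p = 1.17e-07).

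Sterol synthesis genes fell at the later time. They are switched on by SREBP2 when cholesterol in the membranes of the cell is short. Of 29 tested genes of cholesterol and fatty acid synthesis, 1 had a higher and 20 a lower interaction, with a median of -0.91 beside -0.0005 for all tested genes. Their share called was 72.4%, beside 35.1% of all tested genes. At 36 h 3 rose and 23 fell (median -0.65), and at 16 h 10 rose and 8 fell, with a median of 0.16 that was -0.12 with library totals. Leaving out any 1 library gave 1 to 2 higher and 20 to 21 lower. MSMO1, an enzyme of late cholesterol synthesis, had 132, 132 and 141 CPM with ouabain at 36 h, 288, 283 and 294 CPM with vehicle at 36 h, 356, 294 and 356 CPM with ouabain at 16 h and 273, 236 and 251 CPM with vehicle at 16 h. It fell at 36 h, with an interaction of -1.50 ± 0.12 (adjusted p = 8.43e-12), and its rise of 0.40 at 16 h was 0.12 and not called with library totals. MVK, mevalonate kinase, fell at both times and more at 36 h (-2.25 and -0.69).

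Amino acid transporters and the amino acid response rose at both times. Of 19 tested transporters, 16 rose at 36 h (median 1.75) and 13 at 16 h (median 0.84), beside 30.2% and 25.1% of all tested genes. In the interaction 10 of the 19 were higher and 1 lower, or 57.9% called beside 35.1% of all tested genes. SLC1A4, a carrier of alanine, serine and cysteine, had 18.7, 19.5 and 23.1 CPM with ouabain at 36 h, 5.86, 7.5 and 6.2 CPM with vehicle at 36 h, 4.91, 5.49 and 4.57 CPM with ouabain at 16 h and 8.82, 10.8 and 8.32 CPM with vehicle at 16 h. It rose at 36 h and fell at 16 h (interaction 2.53 ± 0.17, adjusted p = 1.97e-13). SLC7A2, a carrier of arginine and lysine, had an interaction of 1.23 ± 0.19. Of 29 tested genes of the integrated stress response driven by ATF4, 22 rose at 36 h and 24 at 16 h. Among all tested genes 30.2% rose at 36 h and 25.1% at 16 h. In the interaction 11 of the 29 were higher and 6 lower (7 and 7 without ouabain 16 h replicate 2). With all libraries that is 58.6% called, beside 35.1% of all tested genes. VLDLR, a lipoprotein receptor in that list, had 34.9, 36.1 and 37.9 CPM with ouabain at 36 h and 7.99, 7.68 and 7.57 CPM with vehicle, against 9.39, 10.6 and 8.89 CPM with ouabain at 16 h and 8.37, 9.62 and 7.14 CPM with vehicle (interaction 2.02 ± 0.18). DDIT3, the stress factor CHOP, rose by 1.75 at 36 h and 1.41 at 16 h, with an interaction of 0.34 ± 0.18 (95% interval -0.02 to 0.69).

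Genes of the unfolded protein response of the endoplasmic reticulum leaned to a lower interaction, with 0 of 20 higher and 10 lower (median -0.38). Their share called was 50.0%, beside 35.1% of all tested genes. At 36 h 6 rose and 9 fell, with a median of -0.005. At 16 h 12 rose and 1 fell with a median of 0.26, and 4 rose and 5 fell with a median of -0.02 when libraries were scaled by their totals. SEL1L, a scaffold of protein removal from the endoplasmic reticulum, had 85.8, 87.6 and 93.9 CPM with ouabain at 36 h and 208, 208 and 201 CPM with vehicle, and 171, 170 and 174 CPM with ouabain at 16 h and 163, 172 and 185 CPM with vehicle. Its interaction was -1.19 ± 0.10 (adjusted p = 4.9e-11), and its change of -0.02 at 16 h was -0.30 and called with library totals. Lysosomal genes rose at both times (beside 30.2% and 25.1% of all tested genes), 25 of 35 at 36 h and 28 at 16 h. Their interaction counts, 14 higher and 2 lower, were 7 and 4 without ouabain 16 h replicate 2, 13 and 4 without ouabain 16 h replicate 3, and 7 and 1 without the filter on low counts. The share of lysosomal genes called with all libraries was 45.7%, beside 35.1% of all tested genes. GLA, a lysosomal galactosidase, had 463, 484 and 490 CPM with ouabain at 36 h and 87.6, 88.8 and 82 CPM with vehicle, and 176, 137 and 172 CPM with ouabain at 16 h and 83.2, 77.3 and 83 CPM with vehicle (interaction 1.48 ± 0.13). Autophagy genes were split, 7 of 28 higher and 7 lower in the interaction, or 50.0% called. MAP1LC3B, the protein that coats autophagosomes, had an interaction of 0.99 ± 0.14 on top of a rise at both times, and NBR1, a cargo receptor, one of -0.67 ± 0.09.

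Matrix and contractile genes of the fibroblast leaned to a lower interaction. Of 22 tested collagen genes, 0 had a higher and 17 a lower interaction (median -0.83), of 32 matrix glycoproteins and crosslinkers 3 higher and 19 lower (median -0.55), and of 20 contractile and actin genes 0 higher and 16 lower (median -0.64). At 36 h 15 collagen genes fell and 1 rose, and at 16 h 7 rose and 4 fell, with a median of 0.19 that was -0.10 with library totals. Of the matrix glycoproteins and crosslinkers, 8 rose and 16 fell at 36 h (median -0.25), and 13 rose and 4 fell at 16 h (3 and 9 with library totals). Of the contractile genes, 0 rose and 15 fell at 36 h, and 4 rose and 6 fell at 16 h. The collagen counts were 0 to 1 higher and 15 to 18 lower when any 1 library was left out.

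COL1A1, the main chain of collagen I, had 299, 299 and 321 CPM with ouabain at 36 h, 1132, 1131 and 1100 CPM with vehicle at 36 h, 883, 926 and 798 CPM with ouabain at 16 h and 1187, 1230 and 1217 CPM with vehicle at 16 h. It fell 3.66-fold at 36 h and 1.39-fold at 16 h, an interaction of -1.39 ± 0.16 (adjusted p = 1.25e-08). COL6A3, a chain of the microfibrillar collagen VI, had 1028, 1131 and 1221 CPM with ouabain at 36 h and 2350, 2353 and 2366 CPM with vehicle, and 3892, 3282 and 3545 CPM with ouabain at 16 h and 2316, 2787 and 2857 CPM with vehicle. It fell at 36 h, with an interaction of -1.49 ± 0.17, and its rise of 0.43 at 16 h was 0.14 and not called with library totals. SPARC, a matrix protein that binds collagen, had 419, 484 and 519 CPM with ouabain at 36 h, against 1297, 1283 and 1265 CPM with vehicle. At 16 h SPARC had 1246, 1163 and 1138 CPM with ouabain and 1281, 1225 and 1231 CPM with vehicle. Its interaction was -1.36 ± 0.10 (adjusted p = 3.4e-12), and its change of -0.08 at 16 h was -0.36 and called with library totals. DCN, the proteoglycan decorin and a marker of fibroblasts, had a higher interaction, with 205, 231 and 236 CPM with ouabain at 36 h and 84.2, 84.8 and 83.5 CPM with vehicle, and 143, 117 and 137 CPM with ouabain at 16 h and 98.7, 91.6 and 95.6 CPM with vehicle (interaction 0.94 ± 0.14). HAS2, which makes hyaluronan, also had a higher interaction, 1.78 ± 0.21.

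MYLK, the kinase of the myosin light chain, had 71, 76.9 and 82.9 CPM with ouabain at 36 h and 308, 315 and 316 CPM with vehicle, and 202, 233 and 204 CPM with ouabain at 16 h and 289, 352 and 341 CPM with vehicle, with an interaction of -1.41 ± 0.13. ACTG1, cytoplasmic gamma actin, had one of -1.10 ± 0.10. Of the 8 fibroblast markers, 1 had a higher and 6 a lower interaction. Markers of other cell types were low. Summed levels of the epithelial markers were 33.69 to 35.53 CPM with ouabain at 36 h, 31.13 to 37.4 CPM with vehicle at 36 h, 50.67 to 62.24 CPM with ouabain at 16 h and 35.14 to 40.13 CPM with vehicle at 16 h, of which CDH1, KRT5 and KRT14 were too low to be tested, and 1 of 3 tested (KRT18) had a lower interaction. Endothelial markers summed to 19.33 to 24.77 CPM with ouabain at 36 h, 6.026 to 8.083 CPM with vehicle at 36 h, 15.06 to 21.67 CPM with ouabain at 16 h and 6.14 to 8.82 CPM with vehicle at 16 h, with CDH5 not tested and 0 of 3 called in the interaction. Leukocyte markers summed to at most 5.599 CPM in any library, with CD3E not tested and 0 of 4 called. Smooth muscle markers had 56.9 to 75.59 CPM with ouabain at 36 h, 95.04 to 104.1 CPM with vehicle at 36 h, 125.6 to 150.6 CPM with ouabain at 16 h and 121.7 to 127.9 CPM with vehicle at 16 h, with 1 of 4 higher and 2 lower in the interaction. Whether a change in the mix of cells has a part in the change of matrix genes was not tested.

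Mitochondrially encoded transcripts leaned to a lower interaction. Of 13 tested, 0 had a higher and 10 a lower interaction (median -0.75), or 76.9% called. At 36 h 9 fell and 2 rose (median -0.47), and at 16 h 2 fell and 7 rose (median 0.28). With library totals the 16 h change of MT-CYB went from 0.42 to 0.14 and was not called. That of MT-ND5 went from -0.15 to -0.43 and was called. Their summed level was 27540 to 42390 CPM with ouabain at 36 h, 54800 to 55540 CPM with vehicle at 36 h, 56300 to 60040 CPM with ouabain at 16 h and 51220 to 52350 CPM with vehicle at 16 h, over all 13 genes. MT-CO3, a subunit of cytochrome oxidase, had 1518, 2208 and 2156 CPM with ouabain at 36 h, 5252, 5190 and 5210 CPM with vehicle at 36 h, 3560, 4082 and 3429 CPM with ouabain at 16 h and 4839, 4584 and 4543 CPM with vehicle at 16 h. The first ouabain library of 36 h was the lowest, and the interaction was -1.08 ± 0.17 (adjusted p = 6.97e-06). At 16 h the ouabain libraries of MT-CO3 lay below vehicle, while 7 of the 13 genes rose. Leaving out any 1 library gave 0 higher and 9 to 10 lower. Of 36 tested nuclear genes of oxidative phosphorylation, 0 had a higher and 12 a lower interaction (median -0.21). That is 33.3% called, beside 35.1% of all tested genes (18.4% higher and 16.7% lower). The count was 6 lower with library totals, without ouabain 16 h replicate 1 and without vehicle 16 h replicate 3. It was 1 higher and 7 lower without vehicle 36 h replicate 1. ATP5F1A, a subunit of ATP synthase, had an interaction of -0.79 ± 0.12 (adjusted p = 2.47e-06).

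**Figure D5:**
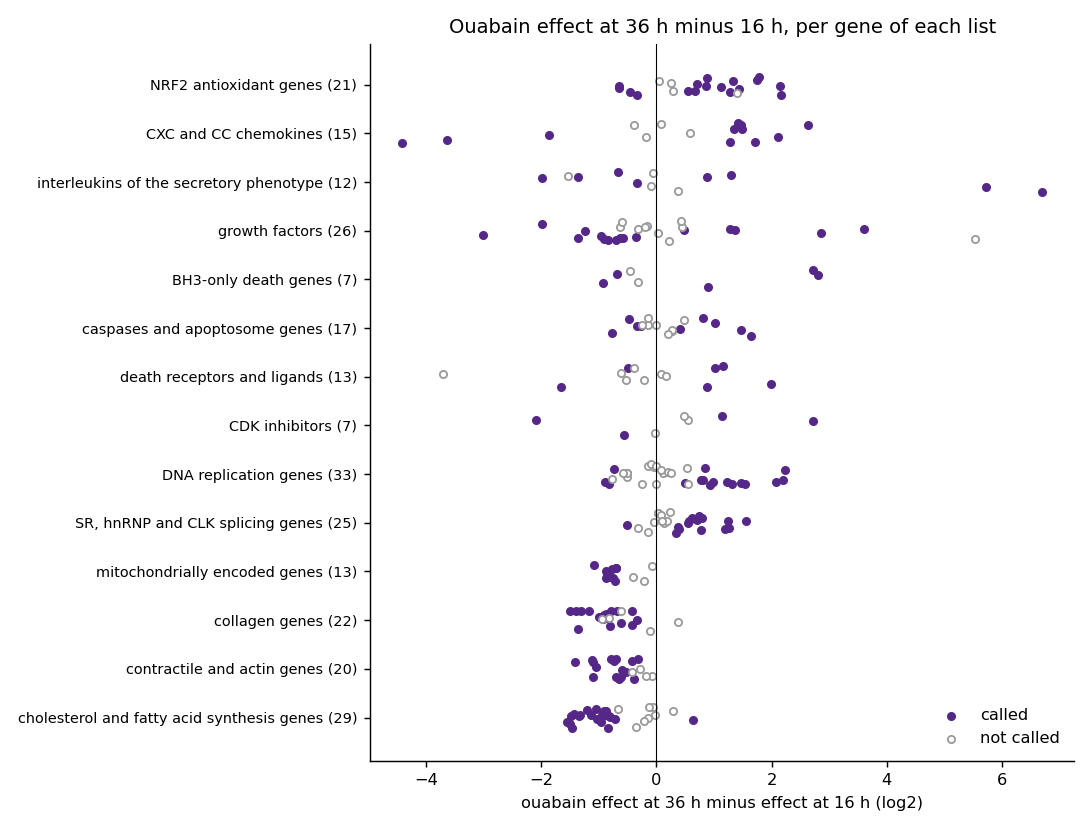
Time interaction (log2, ouabain effect at 36 h minus that at 16 h) of each tested member of 14 gene groups, each point 1 gene, filled where called. Cholesterol synthesis, collagen, contractile and mitochondrially encoded genes lie mostly left of 0, and antioxidant and splicing genes mostly right of it.

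Several genes with a large positive interaction were nearly silent in vehicle cells. LINC02957, a long noncoding RNA, had 820 counts with ouabain and 0 with vehicle at 36 h, which makes it at least 349-fold higher (bounded by 3 counts over the vehicle group, counting error only). For IL1RN, the antagonist of the IL-1 receptor, with 317 counts with ouabain and 3 with vehicle at 36 h, the ratio was 135 (95% counting interval 45.8 to 658), and at 16 h its change of 0.17 was not called (adjusted p = 0.909). UCA1, another long noncoding RNA, had 699 counts with ouabain and 1 with vehicle at 36 h, a ratio of 893 (160 to 3.53e+04). APLN, the ligand of the apelin receptor, had 18.2, 19 and 18.8 CPM with ouabain at 36 h, 0.0547, 0.184 and 0.171 CPM with vehicle at 36 h, 0.737, 0.458 and 0.3 CPM with ouabain at 16 h and 0.112, 0.566 and 0.189 CPM with vehicle at 16 h (interaction 6.25 ± 0.79, adjusted p = 8.63e-08). PI3, the elastase inhibitor elafin, had 84.6, 75.1 and 78.9 CPM with ouabain at 36 h, against 1.37, 1.33 and 1.24 CPM with vehicle, and 1.53, 1.48 and 1.86 CPM with ouabain at 16 h, against 1.17, 0.849 and 0.615 CPM with vehicle (5.02 ± 0.34, adjusted p = 1.65e-13). XIRP1, an actin-binding protein of muscle, had 73.6, 90.7 and 118 CPM with ouabain at 36 h and 0 to 0.299 CPM with vehicle (5.87 ± 0.93). IL23A, a subunit of IL-23, had an interaction of 4.99 ± 0.86, the nucleotide kinase CMPK2 4.89 ± 0.84 and the hexokinase HKDC1 4.88 ± 0.39.

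Among the genes with a large negative interaction were some well expressed in vehicle cells. NES, the intermediate filament nestin, had 38.7, 38.3 and 35.1 CPM with ouabain at 36 h, 366, 356 and 365 CPM with vehicle at 36 h, 193, 238 and 177 CPM with ouabain at 16 h and 366, 359 and 372 CPM with vehicle at 16 h. It fell 9.66-fold at 36 h and 1.80-fold at 16 h (interaction -2.42 ± 0.16, adjusted p = 1.62e-13). TRPA1, an ion channel that senses irritants, had 33.7, 33.1 and 34.4 CPM with ouabain at 36 h and 290, 283 and 263 CPM with vehicle, and 206, 214 and 201 CPM with ouabain at 16 h and 289, 280 and 301 CPM with vehicle (-2.56 ± 0.17). The urea transporter SLC14A1 followed at -2.88 ± 0.21, and the Wnt antagonist DKK2 at -2.41 ± 0.25. DNAI3, a dynein chain of cilia, was at -3.09 ± 0.35. VWA5A, VAT1L, CLIP3 and INSC had interactions of -2.92, -2.51, -2.40 and -2.30.

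Digoxin, a related cardiac glycoside that carries a chain of sugars where ouabain carries a single sugar, was given to the same cells for the same times. Doses of either drug are not in the labels, so the comparison is at matched times and unknown doses. The time interaction of digoxin was called for 7978 genes (42.7%), and both interactions share the vehicle libraries. The difference between the drugs in their 36 h minus 16 h change, from which vehicle cancels, was called for 792 genes (4.24%), with 105 higher for ouabain (0.562%) and 687 lower (3.67%). That split was 126 higher and 328 lower with library totals. Of the 792, 516 were called in the ouabain interaction and 687 in the digoxin interaction. Compared directly, ouabain and digoxin differed in 5.36% of all tested genes at 36 h and in 4.94% at 16 h, and these included 371 of the 792 at 36 h and 308 at 16 h. Among the 687 lower ones, 640 had a positive digoxin interaction. The difference subtracts the digoxin change, so genes picked for a low value are pushed toward a positive digoxin interaction. This count, and the counts called in either interaction, come partly from how the difference is built, and no conclusion is drawn from them. Without ouabain 16 h replicate 2 the count was 789, of which 483 were shared in the same direction, with 202 higher and 587 lower. Without ouabain 36 h replicate 1 it was 480.

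SLC30A1, a zinc exporter, had an interaction of 1.18 ± 0.12 with ouabain and 2.15 ± 0.12 with digoxin, a difference of -0.96 ± 0.12 (adjusted p = 8.27e-06, and -0.76 without ouabain 16 h replicate 2). DUSP6 was at -1.54 ± 0.11 with ouabain and -0.79 ± 0.11 with digoxin, a difference of -0.75 ± 0.11 (adjusted p = 0.000153). IL1B was at 1.29 ± 0.14 with ouabain and 1.86 ± 0.14 with digoxin (adjusted p = 0.0127). FUT4, a fucosyltransferase, had 8.38, 7.79 and 8.23 CPM with ouabain at 36 h and 1.47, 2.9 and 0.901 CPM with ouabain at 16 h, and with digoxin means of 10.4 CPM at 36 h and 0.656 CPM at 16 h. The difference for FUT4 was -1.81 (adjusted p = 0.00172), and -1.18 without ouabain 16 h replicate 2 (adjusted p = 0.0292). For other genes no difference was called. HMOX1 differed by -0.16 (95% interval -0.49 to 0.17), NQO1 by -0.05 (-0.29 to 0.20), CDKN2B by -0.12 (-0.32 to 0.07), COL1A1 by 0.15 (-0.17 to 0.47) and MSMO1 by -0.06 (-0.31 to 0.18). The intervals for BMF (-0.91 to 0.35), CXCL8 (-0.86 to 0.24) and BCL2L11 (-0.56 to 0.86) were wider.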

How the data were processed

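RNA of 36 libraries was sequenced from a stranded mRNA kit, and the authors deposited raw read counts per gene. The submitters' processing notes name TopHat2 2.0.11, build hg19 and featureCounts, but the sources used here state neither the counter's version nor its strand setting or annotation. Near-identical copies (HSPA1A and HSPA1B, ribosomal pseudogenes) and overlapping or antisense genes are therefore uncertain. Library totals were 10854351 to 21446415 counts.

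The counts were fitted with edgeR 4.0.16 (R 4.3.3, limma 3.58.1) as 12 group means over 36 libraries, after edgeR's filter on low counts and TMM scaling. Quasi-likelihood tests were adjusted by Benjamini-Hochberg over all 18696 tested genes, and a gene was called at 0.05. CPM are TMM-scaled, and log CPM used a prior count of 2. Ratios against groups at or near 0 counts use exact counting intervals or a floor of 3 counts, which cover counting error only. Alternatives were library totals, DESeq2 1.42.0 with its size factors, no filter, only the 12 libraries, a replicate block and leaving out each library. Tests were checked on simulated data. Tables and figures used Python 3.11.15, pandas 2.3.3 and matplotlib 3.10.9.

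The groups, gene lists and named genes were chosen with earlier results of these data known. Named genes were a fixed panel, from each list the called members of largest interaction (4 at most), the 12 largest called changes in each direction, genes of opposite or equal effect at both times, and the largest differences between the drugs. Of 57232 gene identifiers, 51058 were named from the reference tables.

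Replicate numbers did not pair the libraries: deviations of same-numbered libraries correlated between -0.112 and 0.122 over 18 pairs. A few genes are not reported here.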

Additional observations from a re-analysis of the deposited data

Results flagged for a closer look

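The difference between the ouabain effects at 36 h and at 16 h was tested directly and called for 6562 genes. The time change of ouabain differed from that of digoxin for 792 genes.

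The genes below were picked for a called interaction and for calls of opposite sign at both times. Their interaction calls are therefore part of the selection and no separate result. PRR5L, a regulator of mTOR complex 2, had 8.75, 8.59 and 11.6 CPM with ouabain at 36 h, 2.19, 1.61 and 1.97 CPM with vehicle at 36 h, 0.491, 1.17 and 0.601 CPM with ouabain at 16 h and 2.07, 1.79 and 2.27 CPM with vehicle at 16 h, an interaction of 3.71. KBTBD7 had one of 3.16, ABHD17C 2.90, GINS3 (a subunit of the replicative helicase) 2.87, BMF 2.80 and SLC24A1 2.66. In the other direction were AREG at -3.02, POU2F2 at -2.19, CASS4 at -2.08, RGS4 (a regulator of G protein signalling) at -1.83, TAGLN3 at -1.39 and TRIM55 at -1.36.

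The time change was higher with ouabain than with digoxin for TCERG1L (1.42), PLEKHA6 (1.32), LHX4 (1.24), RNASE7 (1.21) and RPS4XP17 (1.17). Without ouabain 16 h replicate 2, TCERG1L was 1.13 (adjusted p = 0.0730) and RNASE7 1.25 (adjusted p = 0.0756). It was lower with ouabain for TADA1 (-2.36), PCSK5 (-2.03), MMAA (-1.82) and FUT4 (-1.81). Without ouabain 16 h replicate 2, TADA1 was -0.63 (adjusted p = 0.651) and MMAA -0.82 (adjusted p = 0.229). PCSK5 had 47.6 CPM in ouabain 16 h replicate 3 and 5.09 and 5.14 CPM in its replicates, and its ouabain interaction of -0.82 was 1.081 without that library. Adjusted p-values are from edgeR's quasi-likelihood test.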

How the results depend on the processing

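The count of interaction genes (6562) lay between 5925 and 7016 when any 1 library was left out, and was 6362 with library totals, 6595 with DESeq2, 5793 without the filter and 6454 with only the 12 libraries. With the replicate block it was 6560, and the numbers do not pair the libraries. The block gave 11399 genes at 36 h, 9966 at 16 h, 272 for vehicle over time and 733 for the drug difference. The drug difference (792) was less stable: it was 454 with library totals, 1277 with DESeq2 and 480 to 1081 with any 1 library left out. Its lower genes (687) numbered 328 with library totals, 1124 with DESeq2 and 413 to 936 with 1 library left out, and its higher genes (105) 61 to 202. The vehicle time change (287) was 168 with only the 12 libraries, 130 to 415 with 1 library left out and 431 without both ouabain 36 h replicate 1 and ouabain 16 h replicate 2, a setting chosen after seeing the data. The cause was not tested. The drug difference could not be computed with only the 12 libraries. Of 233 named genes, 207 kept their call and direction under every alternative. TRAFD1, at -0.00, ranged between -0.2134 and 0.4975 with 1 library left out (0.4975 without ouabain 16 h replicate 2) and was 0.5295 in the added setting. PCSK5, at -0.82 and not called, ranged between -1.291 without ouabain 16 h replicate 2 and 1.081 without ouabain 16 h replicate 3, the library that held 47.6 CPM where its replicates held 5.09 and 5.14 CPM. Depth limits genes near 0 counts, whose fitted changes are not bounds.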

Other observations

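Circadian clock genes rose at both times, 11 of 17 tested at 36 h and 12 at 16 h, beside 30.2% and 25.1% of all tested genes. In the interaction 2 of the 17 were higher and 6 lower (median -0.26), or 47.1% called beside 35.1% of all tested genes. PER1, a repressor of the clock, had 18.8, 23.8 and 22.7 CPM with ouabain at 36 h, 6.02, 5.24 and 6.07 CPM with vehicle at 36 h, 54.1, 31 and 44.8 CPM with ouabain at 16 h and 4.35, 4.72 and 3.5 CPM with vehicle at 16 h, an interaction of -1.46 ± 0.21. Of 13 tested KLF transcription factors, 6 had a higher and 1 a lower interaction. Their share called was 53.8%, beside 35.1% of all tested genes. KLF6 had 394, 336 and 344 CPM with ouabain at 36 h, 178, 183 and 180 CPM with vehicle at 36 h, 227, 212 and 232 CPM with ouabain at 16 h and 204, 212 and 197 CPM with vehicle at 16 h.

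Of 28 tested glycolysis and hypoxia genes, 7 had a higher and 7 a lower interaction, or 50.0% called beside 35.1% of all tested genes. ADM, which encodes the vasodilator adrenomedullin, had 320, 283 and 276 CPM with ouabain at 36 h, 34.6, 34 and 34.9 CPM with vehicle at 36 h, 82.2, 71.8 and 79 CPM with ouabain at 16 h and 41.8, 40.9 and 42.6 CPM with vehicle at 16 h (interaction 2.19 ± 0.13). Of 23 tested heat shock and chaperone genes, 6 had a higher and 4 a lower interaction (6 and 7 without ouabain 16 h replicate 2). With all libraries that is 43.5% called, beside 35.1% of all tested genes. SNAI1, a transcription factor of the mesenchymal state, had 25.6, 35.3 and 39.9 CPM with ouabain at 36 h, 2.9, 2.62 and 2.78 CPM with vehicle at 36 h, 8.72, 8.04 and 7.27 CPM with ouabain at 16 h and 3.24, 4.15 and 3.5 CPM with vehicle at 16 h (interaction 2.46 ± 0.29).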
